A study of Rattus norvegicus with 32 samples.

Results

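Transcripts of the proteasome subunit genes were counted in paired soma and dendrite libraries of single rat neurons. The set was given as 31 symbols, all of which were among the 17216 gene rows of every library. It held 7 alpha subunits (Psma1 to Psma7) and 7 beta subunits (Psmb1 to Psmb7) of the core particle, 6 ATPases of the base (Psmc1 to Psmc6) and 11 Psmd genes, of which 3 (Psmd1, Psmd2 and Psmd4) encode non-ATPase subunits of the base and 8 encode subunits of the lid.

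The proteasome is the barrel-shaped protease that degrades proteins tagged with ubiquitin. Its core is a stack of alpha and beta rings: the outer alpha rings gate the entry, and Psmb5, Psmb6 and Psmb7 carry the catalytic sites of the inner beta rings. A regulatory particle caps the core: its lid removes ubiquitin chains, and the ATPase ring of its base unfolds the substrate and feeds it into the core. Neurons place proteasomes in the soma and in dendrites, where protein turnover contributes to the remodelling of synapses. The libraries described here give the mRNA side of that picture, subunit by subunit.

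The neurons were hippocampal cells of wildtype Sprague Dawley rats, labelled pyramidal, taken at embryonic day 18 and kept in culture for 15 days. From each of 16 neurons the soma was drawn into 1 micropipette and the dendrites into another, which gave 16 soma and 16 dendrite libraries of polyadenylated RNA, all amplified by 3 rounds of antisense RNA synthesis. Several cultures and several days were used, and the culture of a given neuron is not given in the sources used here. The p-values therefore measure the spread between these neurons only.

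Soma libraries held between 878125 and 24721811 gene counts and dendrite libraries between 229149 and 24439768, with the dendrites shallower in 14 of 16 neurons. Neurod6, a transcription factor gene of excitatory hippocampal neurons, had a median of 840.4 CPM (counts scaled to the library's total of gene counts) in soma and was present in all 32 libraries. Slc17a7, the vesicular glutamate transporter gene that also marks such cells, was near 0, with a soma median of 0.139 CPM. The summed level of 12 astrocyte markers was higher in dendrites in 10 of 16 neurons, with medians of 341 CPM in soma (65.8 to 812) and 458 CPM in dendrites (120.4 to 2759). The defining astrocyte genes Gfap and Aqp4 had medians of 0 CPM in soma and of 0.518 and 0.232 CPM in dendrites. They were higher in dendrites in 10 and 7 neurons and lower in 1 each. S100b had medians of 0 and 33.4 CPM and was higher in dendrites in 11 neurons, while Apoe and Mt3 were higher in 12 each and Glul in 8. Of the 6 astrocyte markers that were tested, 5 had a positive log2 fold change of dendrites over soma. Among all 4916 tested genes, 2696 were positive. The sum of 6 endothelial and fibroblast markers was higher in dendrites in 13 of 16 neurons, with medians of 7.53 and 56.6 CPM. Dcn and Sparc carried that sum (higher in 10 and 9 neurons), and Cldn5, the endothelial marker, was 0 in all libraries. Last, the 6 microglia markers summed to at most 0.698 CPM in any library. Gad1, which marks GABAergic cells and not pyramidal ones, had 10 or more counts in 7 somata and in 11 dendrite libraries. Its medians were 1.12 CPM in soma and 40.0 CPM in dendrites. It reached 11161 CPM in the soma of neuron 8 and 1833 CPM in the dendrites of neuron 7. Of the other markers of such cells, Gad2, Slc32a1, Dlx1 and Lhx6 were highest in neuron 8 in both compartments, and Dlx2 was 0 in all libraries. The part of depth and of these other cell types in the results was not tested.

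Some libraries stand apart. Of 16 somata, 7 had their own dendrites as the closest dendrite library. The 3 highest best matches that crossed numbers were those of neurons 7, 8 and 9: across all tested genes, centred within each compartment, the somata of neurons 7 and 8 were closest to the dendrites of neuron 9 (Spearman 0.26 and 0.23) and the soma of neuron 9 to the dendrites of neuron 7 (0.17). The labelled pair of neuron 8, at 0.19, was still the closest of the 16 labelled pairs. The dendrites of neuron 25 were the shallowest library, and those of neuron 20 had the most genes far below their usual level. Pairs were kept as labelled, and the counts that lead the results are also given without these neurons.

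Every subunit gene was measured in both compartments. All 31 passed the filter on low counts that left 4916 genes for testing, each with ranges that overlapped between soma and dendrites. The share of all tested genes with such an overlap was not counted. In soma, 22 of 31 members had 10 or more counts in all 16 libraries, against 16.9% of all tested genes, and in dendrites 12 of 31 did, against 15.4%. A value of 10 or more was reached in 484 of 496 member values in soma and in 456 of 496 in dendrites. The 11 genes that reached it in all 32 libraries were Psma2, Psma4, Psma7, Psmb1, Psmb4, Psmc1, Psmc5, Psmd1, Psmd2, Psmd3 and Psmd7, and so came from each class. Exact zeros occurred in 3 member values in soma, for Psma3, Psmb6 and Psmd8, and in 10 in dendrites. The 10 fell on Psma3, Psmb2, Psmb3, Psmb6, Psmc3, Psmc4, Psmd4 and Psmd6. They came from few libraries: 5 from the dendrites of neuron 14, 4 from those of neuron 22 and 1 from those of neuron 20.

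**Figure D1:**
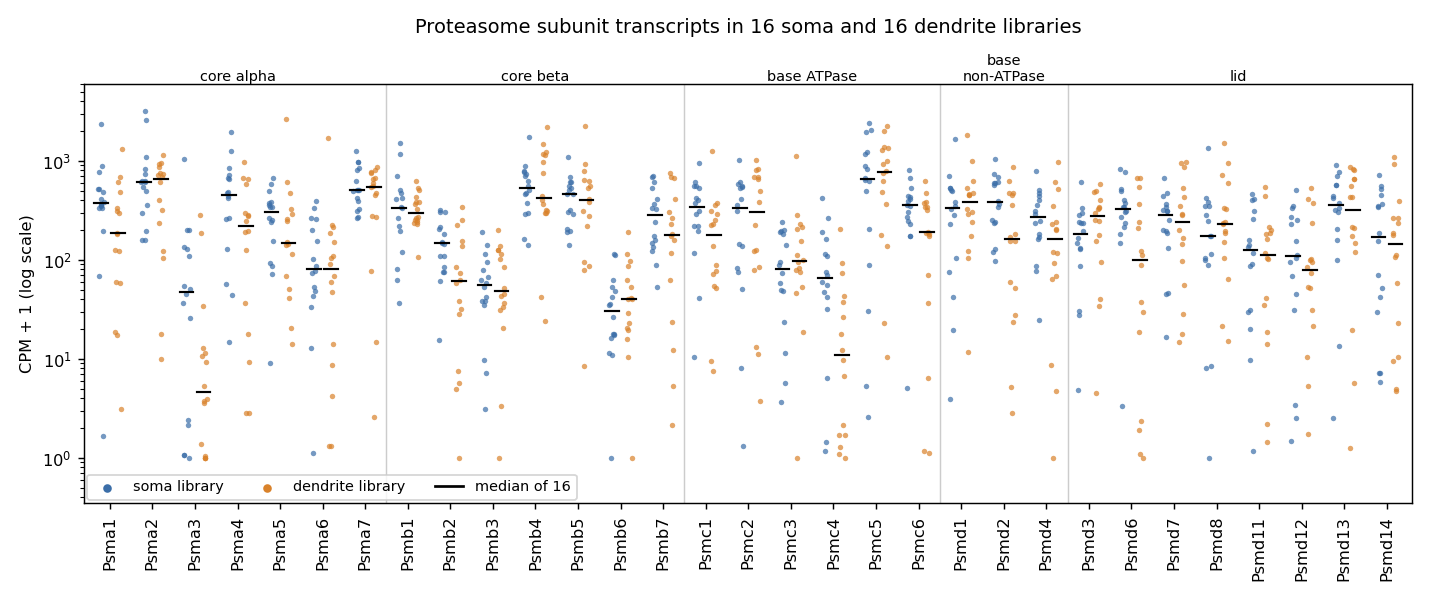
CPM plus 1, on a log scale, of the 31 proteasome subunit genes in 16 soma (blue) and 16 dendrite (orange) libraries, with the median of each group as a black line. The ranges overlap for all 31 genes, and the dendrite medians of Psma3 (3.67 CPM) and Psmc4 (10.04 CPM) lie furthest under their soma medians (46.8 and 64.4 CPM).

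For the complex as a whole, the summed level differed between compartments by less than its spread. The 31 genes summed to 10301 ± 3079 CPM in the 16 soma libraries (SD) and to 9129 ± 1922 CPM in the 16 dendrite libraries, with ranges of 5127 to 17378 and 5473 to 12404 CPM. The highest soma was that of neuron 23 and the lowest that of neuron 20, while the dendrites ran from neuron 28 to neuron 18. The sum was lower in dendrites in 10 of 16 neurons, with a mean log2 ratio of -0.15 ± 0.50 (SD). Against the counts of the spike-in RNAs added to each sample, the mean log2 ratio of dendrites over soma was -0.21 ± 1.36 (SD) and lower in dendrites in 10 of 16 neurons, where all genes together had a mean of -0.06.

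By class, the alpha genes had the widest gap between mean sums in CPM. They held 3019 ± 1483 CPM in soma (SD, n = 16) and 2172 ± 853 CPM in dendrites, which was 28.7% ± 7.46 and 24.1% ± 9.60 of all proteasome counts. The alpha sum was lower in dendrites in 10 of 16 neurons, with a mean log2 ratio of -0.49 ± 1.05 (SD), and the soma of neuron 23, at 7491 CPM, lay far above the next. The beta class held 2040 ± 771 and 2031 ± 946 CPM, lower in dendrites in 8 neurons. The ATPases had 2090 ± 933 and 1907 ± 945 CPM, lower in dendrites in 10 neurons. The lid genes had 2030 ± 681 and 2066 ± 463 CPM, lower in 7 neurons, and the 3 other base genes 1122 ± 474 and 953 ± 583 CPM, lower in 12. As a log2 ratio, the mean of these 3 base genes, -0.60 ± 1.34 (SD), was below that of the alpha class. Their median ratio was -0.26, against -0.35 for the alpha class, and neuron 20 was lowest at -4.16. TMM factors scale libraries on the bulk of their genes. With them in place of library totals, the alpha mean was 3035 ± 3946 CPM (SD) in dendrites and 3143 ± 1663 CPM in soma. The mean of all members was 11536 ± 10785 CPM in dendrites and 10647 ± 3494 CPM in soma. The order of the means thus turned for the whole set, but both sums were still lower in dendrites in 10 of 16 neurons.

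**Figure D2:**
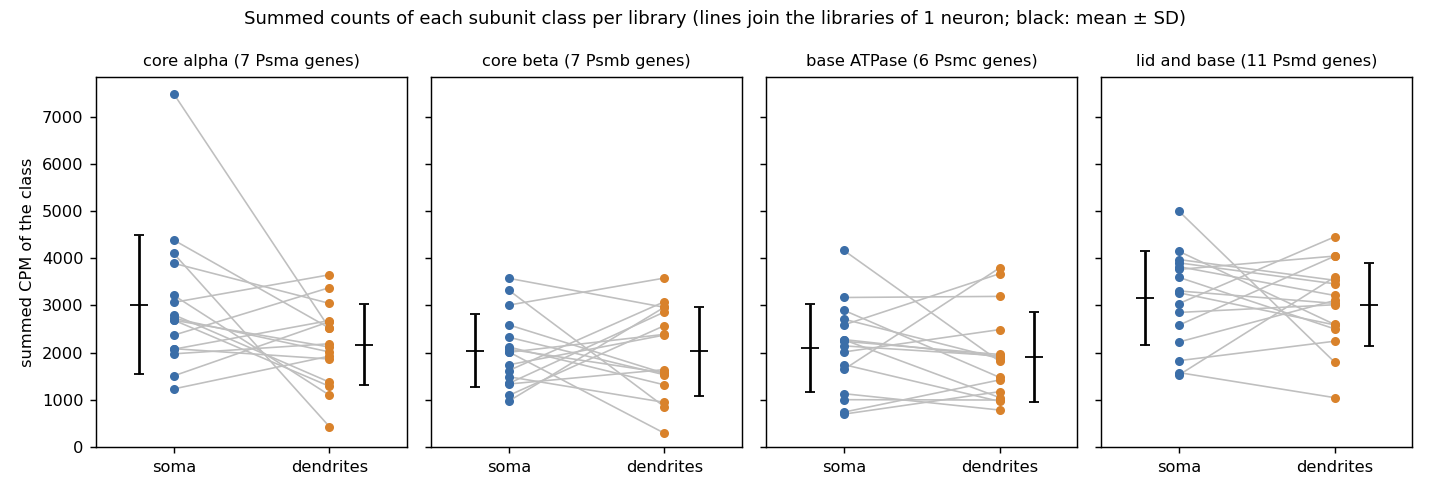
Summed CPM of the alpha, beta, ATPase (Psmc) and Psmd classes in each library, with grey lines that join the soma (blue) and dendrites (orange) of 1 neuron and black marks for the mean ± SD of 16 libraries. Lines run both ways in each class, and the alpha sum of 7491 CPM in the soma of neuron 23 stands above the other points.

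Pairing the libraries within neurons asked which subunit mRNAs differed in relative abundance. In edgeR's quasi-likelihood test with the neuron as a block, 0 of 31 members passed an adjusted p of 0.05, as did 0 of 4916 genes (0.0%), and each member had an adjusted p of 0.999. At an unadjusted p under 0.05 there was 1 member, Psmc4, or 3.23% of the members against 2.62% of all genes. With limma-voom, with the exact sign-flip permutation test or with no replicate block, 0 members and 0 genes passed, and with no filter on low counts 0 members and 1 of 13879 genes (0.00721%). DESeq2's Wald test passed 3 members, Psma3, Psmc4 and Psmd6, all lower in dendrites, or 9.68% of the members, against 8.26% of all genes in either direction and 2.69% lower in dendrites. The sign-flip test gave 4 members an unadjusted p under 0.05, Psmb2, Psmc4, Psmd2 and Psmd6, each lower in dendrites (12.9%, against 2.24% of all genes lower). With no replicate block, edgeR's unadjusted p was under 0.05 for 4 other members, Psma5, Psmb5, Psmb6 and Psmc3, each higher in dendrites (12.9%, against 5.11% of all genes higher). All 4 had their highest dendrite value in the same library, that of neuron 20, at 2612, 2258, 191 and 1125 CPM. Fold changes below are log2 of dendrites over soma from the edgeR fit.

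In the paired fit the members leaned to lower values in dendrites, while without the pairing their median was close to that of all genes. In the paired fit the median log2 fold change was -0.27 over the 31 members and 0.127 over all tested genes, and 19 of 31 members were negative, against 45.2% of all genes. With no replicate block the medians were -0.052 for the members and -0.070 for all genes, with 19 members negative (against 53.1% of all genes). With limma-voom they were -0.053 and 0.20, with 17 negative (against 40.5%). Without neurons 20 and 25, 20 members were negative (against 44.1%), and without neurons 7, 8 and 9, 21 were (against 46.6%). By mean CPM 17 members were lower in dendrites, against 51.8% of all genes. A log2 fold change of -1 or lower was found for 8 members (25.8%, against 17.8% of all genes), namely Psma3, Psma4, Psmb2, Psmb7, Psmc1, Psmc4, Psmd2 and Psmd6. One of 1 or higher was found for 0 members, against 22.9% of all genes. Both shares over all genes were smaller among well-detected genes. Where 10 counts were required in 28 of 32 libraries, 6 of 29 members were at -1 or lower (against 8.52%) and 0 at 1 or higher (against 8.71%). With no replicate block, 2 members were at -1 or lower (against 15.7%) and 5 at 1 or higher (against 15.3%), namely Psma5, Psmb5, Psmb6 at 1.75, Psmc3 at 2.55 and Psmd8 at 1.32. With limma-voom, 3 were at -1 or lower (against 9.36%) and 0 at 1 or higher (against 20.1%). Lower CPM in dendrites in at least 12 of 16 neurons was found for 5 members, Psma3, Psmb2, Psmc1, Psmc4 and Psmd2 (16.1%, against 2.81% of all genes), and higher CPM in at least 12 for 0, against 3.46%. On TMM-scaled log2 CPM there were also 5, with Psmd4 in place of Psmc1 (against 2.71%). Without neurons 20 and 25, 4 members were lower in at least 11 of 14 neurons (against 1.81%), and without neurons 7, 8 and 9, 7 members were lower in at least 10 of 13 (against 3.46%) and 1, Psmd1, was higher (against 4.29%). Psma3, Psmb2, Psmc4 and Psmd2 were among the lower genes in all 4 counts, and Psmc1 only in the first.

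**Figure D3:**
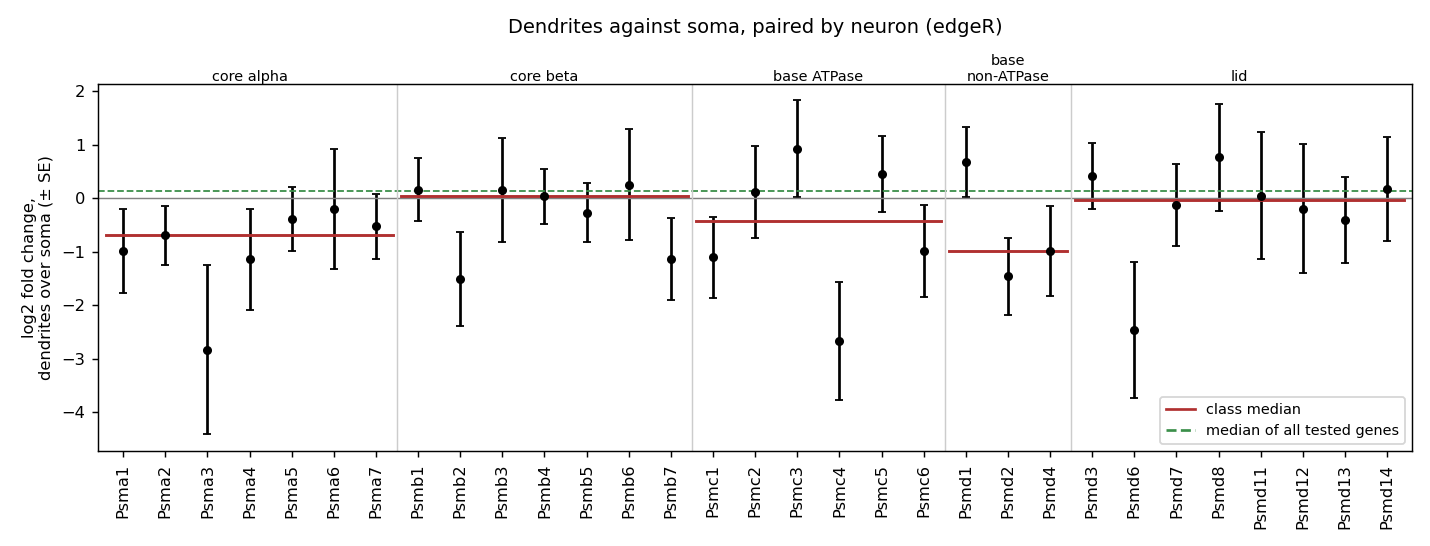
Log2 fold change of dendrites over soma, with its SE, for each subunit gene from the paired edgeR fit, grouped by class, with the class median in red and the median of all 4916 tested genes, 0.127, as a green dashed line. All 7 alpha genes lie below 0, the beta and lid medians lie close to it at 0.04 and -0.04, and Psma3, Psmc4 and Psmd6 lie lowest.

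The promoters of 3 of the 5 genes with the most uniform direction are shown, each as the 250 bases before the gene's start from RefSeq on build GRCr8, 5′ to 3′ on the gene's strand. Proteasome genes are a textbook case of shared control, through the factor Nrf1 and the antioxidant response element. In Psma3 (chr6:95219499-95219748, plus strand) and Psmb2 (chr5:144254808-144255057, plus strand) capitals mark a match to the core of that element, TGACNNNGC, which lies on the opposite strand in Psma3. In Psmc4 (chr1:92485061-92485310, minus strand), which has no such match, they mark matches to the GC box GGGCGG, one on each strand.
Psma3: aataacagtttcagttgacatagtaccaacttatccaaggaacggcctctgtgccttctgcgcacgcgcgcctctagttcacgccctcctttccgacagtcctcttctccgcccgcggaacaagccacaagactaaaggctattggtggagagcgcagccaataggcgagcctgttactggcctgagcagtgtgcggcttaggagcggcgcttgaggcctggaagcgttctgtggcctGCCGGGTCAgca
Psmb2: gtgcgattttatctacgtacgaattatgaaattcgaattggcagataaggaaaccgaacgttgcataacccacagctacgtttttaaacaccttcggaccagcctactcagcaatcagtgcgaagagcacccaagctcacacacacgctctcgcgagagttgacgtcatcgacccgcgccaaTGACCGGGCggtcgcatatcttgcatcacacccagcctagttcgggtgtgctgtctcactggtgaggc
Psmc4: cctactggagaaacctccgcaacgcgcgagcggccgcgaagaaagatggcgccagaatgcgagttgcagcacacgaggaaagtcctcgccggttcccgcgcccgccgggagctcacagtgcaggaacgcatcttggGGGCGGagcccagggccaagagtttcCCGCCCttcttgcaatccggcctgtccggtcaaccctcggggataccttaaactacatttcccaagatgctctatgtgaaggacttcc
Both strands were searched, in the 250 bases before and 50 after the start, for the 27 members with a promoter in the table. The element's core was found in 6 of 27 (22.2%) and in 12.1% of 33469 promoters. The 6 were Psma3, Psmb2, Psmb5, Psmb6, Psmd1 and Psmd3, of which 3 had a negative fold change, with a median of -0.01 against -0.39 for the other 21. The GC box was found in 19 of 27 (70.4%, against 33.1% of all promoters) and the CCAAT box, searched as CCAAT, in 14 (51.9%, against 37.5%). Of the 14 genes with a CCAAT box 11 were negative, with a median of -0.84, and of the 13 without 5 were, with a median of 0.05. In Psmb2 the element's core overlaps both a CCAAT box and a GC box. A match describes letters only, since no factor's binding was measured, and the split by motif was not tested.

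All 7 alpha subunit genes had a negative log2 fold change, with a median of -0.69. Psma3 stood lowest, at -2.84 ± 1.58 (SE, n = 16). It ran from 0 to 1046 CPM in soma, with a median of 46.8, and from 0 to 280 CPM in dendrites, with a median of 3.67. Its dendrite value was lower in 13 of 16 neurons, and the exceptions were neurons 11, 21 and 28, where the soma held at most 13 counts. The count rows also hold Psma3l, which RefSeq gives as a synonym of Psma3, with 2 counts over all 32 libraries.

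Psma1 was at -0.99 ± 0.78 (SE, n = 16), with a range of 0.648 to 2357 CPM in soma (median 370.2) and of 2.09 to 1308 CPM in dendrites (median 183). Psma2 was at -0.69 ± 0.55, with 158 to 3169 CPM in soma (median 615) and 9.07 to 1139 CPM in dendrites (median 649). Its median was thus a little higher in dendrites, and the high soma values of neurons 11 and 23 carried the difference of the means. Psma4, at -1.14 ± 0.94, had medians of 454 and 220.4 CPM and was lower in dendrites in 11 of 16 neurons. Psma5, Psma6 and Psma7 lay between -0.53 and -0.21. For Psma5 and Psma6 the mean CPM was higher in dendrites, against the sign of the fold change, through single libraries: the dendrites of neuron 20 held 2612 CPM of Psma5 and those of neuron 22 held 1680.2 CPM of Psma6. With no replicate block these 2 genes stood at 2.06 and 0.41, so that 5 of 7 alpha genes were negative in that fit. The count was 6 of 7 with limma-voom and without neurons 20 and 25, and 7 of 7 without neurons 7, 8 and 9.

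The beta class had 3 negative and 4 positive members and a median of 0.04. Among the catalytic subunits, Psmb7, which carries the trypsin-like site, was at -1.13 ± 0.76 (SE, n = 16), with 52.3 to 696 CPM in soma (median 284) and 1.16 to 748 CPM in dendrites (median 176). Psmb5, which carries the chymotrypsin-like site, was at -0.27 ± 0.55, with 139 to 1099 CPM in soma (median 462) and 7.47 to 2258 CPM in dendrites (median 399). Psmb6, which carries the caspase-like site, was at 0.25 ± 1.03, with 0 to 113 CPM in soma (median 29.5) and 0 to 191 CPM in dendrites (median 39.4). The 3 catalytic genes therefore had no common direction, and each overlapped over most of its range. With no replicate block Psmb5 stood at 1.42, and its highest value by far was in the dendrites of neuron 20.

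Psmb2, a structural beta subunit, had the lowest fold change of the class, at -1.51 ± 0.88 (SE). It had 14.5 to 315 CPM in soma (median 145) and 0 to 336 CPM in dendrites (median 60.01), and was lower in dendrites in 14 of 16 neurons, the most of any member. The sign-flip test of its paired log2 differences gave an exact permutation p of 0.00385 (two-sided), and 0.744 after adjustment over all tested genes. Psmb1, Psmb3 and Psmb4 lay between 0.04 and 0.16. Psmb1 was the steadiest of all members in dendrites, with 107 to 628 CPM and a coefficient of variation (SD over mean) of 0.402.

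The ATPases of the base, whose ring unfolds substrates, were split: Psmc1, Psmc4 and Psmc6 were negative and Psmc2, Psmc3 and Psmc5 positive, with a median of -0.43. Psmc4 had the smallest p of all members. In soma it ran from 0.162 to 418 CPM (median 64.4) and in dendrites from 0 to 203 CPM (median 10.04), and 15 soma but only 10 dendrite libraries reached 10 counts. Soma was higher in 13 of 16 neurons. Dendrites were higher in neuron 7 (72.3 against 69.6 CPM), in neuron 26 (36.3 against 30.7 CPM) and in neuron 20 (0.697 against 0.162 CPM, or 3 counts against 1). The log2 fold change was -2.67 ± 1.10 (SE, n = 16, edgeR unadjusted p = 0.0223, adjusted p = 0.999). The paired differences gave an exact sign-flip permutation p of 0.00211 (two-sided, adjusted 0.744), and DESeq2's Wald test an adjusted p of 0.00328. RefSeq lists 3 pseudogenes of Psmc4, and the handling of reads shared with such copies is not given in the sources used here.

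Psmc1 was at -1.11 ± 0.76 (SE, n = 16), with 9.32 to 949.6 CPM in soma (median 342) and 6.59 to 1245 CPM in dendrites (median 178), with dendrites below soma in 12 of 16 neurons. Psmc6, at -0.98 ± 0.85, had medians of 355 and 189 CPM and lower values in 11 neurons. Psmc3 had the highest fold change of all members, 0.93 ± 0.90, with dendrites above soma in 11 of 16 neurons and medians of 80.1 and 96.9 CPM. Its highest value, 1125 CPM, was again in the dendrites of neuron 20. Psmc5 and Psmc2 stood at 0.45 and 0.12, each higher in dendrites in 8 of 16 neurons. Within this class the fold changes thus ran from -2.67 to 0.93, while the 6 proteins enter the ring in equal numbers.

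The Psmd genes gave 6 negative and 5 positive values and a median of -0.13. The 3 base genes among them had a median of -0.99, below the alpha median of -0.69, with 2 negative and 1 positive. In the base, Psmd2, a large scaffold subunit that binds shuttle factors, was at -1.46 ± 0.72 (SE, n = 16), lower in dendrites in 12 of 16 neurons. It had 97.1 to 1032 CPM in soma (median 378) and 1.86 to 856 CPM in dendrites (median 161), with an exact sign-flip permutation p of 0.0097 (two-sided, adjusted 0.865). Psmd4, a receptor for ubiquitin chains, was at -0.99 ± 0.84, with 23.7 to 782 CPM in soma (median 269) and 0 to 978 CPM in dendrites (median 160.4) and lower values in 11 neurons. Psmd1, the other large scaffold subunit, was at 0.68 ± 0.65, with medians of 335 and 386 CPM and higher values in dendrites in 10 neurons. The 2 scaffold genes thus had opposite signs.

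In the lid, Psmd6 stood apart from the other 7 genes. It ran from 2.32 to 833 CPM in soma (median 326) and from 0 to 667 CPM in dendrites (median 98.7), with a log2 fold change of -2.46 ± 1.27 (SE, n = 16) and lower values in dendrites in 11 of 16 neurons. All 16 soma and 12 dendrite libraries reached 10 counts. The exact sign-flip permutation p was 0.0242 (two-sided, adjusted 0.865), and with no replicate block the value was -0.91. Psmd8 was the highest of the lid, at 0.76 ± 1.00, with 0 to 1335 CPM in soma (median 174) and 13.99 to 1519 CPM in dendrites (median 230.1). Psmd14, the deubiquitinase of the lid, stood at 0.18 ± 0.97, with medians of 169 and 144 CPM. The remaining lid genes, Psmd3, Psmd7, Psmd11, Psmd12 and Psmd13, lay between -0.41 and 0.42 and were lower in dendrites in 7 to 9 of 16 neurons. The lid median was -0.04, and 0.19 with limma-voom.

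In some libraries individual subunits lay far below their usual level while others did not. Against its own median over the 32 libraries, a member was counted as far below it at under 10% of that median, a measure chosen after the values were seen. This held for 38 of 496 values in soma (7.66%) and for 82 of 496 in dendrites (16.5%), while over all tested genes the shares were 26.2% and 24.1%. More members were far below in dendrites than in soma in 9 neurons and fewer in 4. Over all tested genes, the share was higher in dendrites in neurons 7, 8, 13, 14, 15, 20, 22, 23 and 25. In the other neurons it was higher in soma. The dendrites of neurons 14, 15, 20, 22 and 27 held 64 of the 82 values. In these 5 libraries between 36.9% and 60.0% of all tested genes were far below as well. Without neurons 20 and 25 the shares were 7.14% in soma and 12.7% in dendrites.

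The dendrites of neuron 14 show the pattern. That library had 12332484 gene counts, yet 13 members (41.9%) were far below their median, as were 49.9% of all tested genes. Of the members, 5 had 0 counts, among them Psmb2, Psmd4 and Psmd6, while Psmd1 stood at 1840.3 CPM and Psmd14 at 1080 CPM. The summed level there was 10735 CPM, above the dendrite median of 9406 CPM. In the dendrites of neuron 20, 23 members (74.2%, against 60.0% of all tested genes) were far below. Psma5 alone, at 2612 CPM, made up 33.8% of all proteasome counts there. In the soma of neuron 11, 6 members (19.4%, against 44.6% of all tested genes) were far below and Psma2 made up 32.6%. The soma libraries of neurons 7, 8, 9, 13, 14, 15, 23 and 25 had 0 members far below (against 5.45% to 25.4% of all tested genes). The last of these was the shallowest soma library, with 878125 gene counts.

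**Figure D4:**
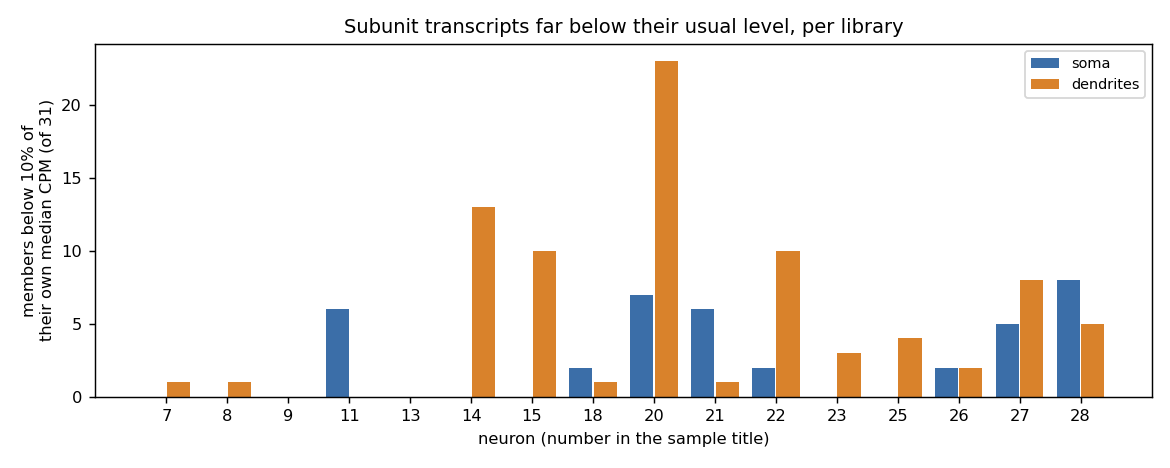
Number of the 31 subunit genes under 10% of their own median CPM (over all 32 libraries) in the soma (blue) and dendrites (orange) of each neuron. The dendrites of neuron 20 hold 23 such genes and those of neuron 14 hold 13, while 8 soma and 3 dendrite libraries hold 0. Of all tested genes, 60.0% and 49.9% were that low in the dendrites of neurons 20 and 14.

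At 1 fixed depth of 1071293 gene counts, the members with 5 or more counts numbered 29.3 ± 2.26 in soma and 28 ± 3.87 in dendrites (SD, n = 15 neurons, without neuron 25). Dendrites minus soma came to -1.33 ± 3.83 genes (SD), and dendrites had fewer in 7 neurons, more in 4 and as many in 4. The lowest library was that of the dendrites of neuron 14, with 20 members. With 1 or more counts required the difference was -0.4 ± 2.38 genes (fewer in dendrites in 5 neurons, more in 3), and with 20 or more it was -2.2 ± 5.98 (fewer in 10, more in 4). Each was smaller than its SD between neurons.

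Between neurons, most members varied more in dendrites than in soma. The coefficient of variation had a median of 0.80 over the 31 members in soma (0.496 for Psma7 to 2.02 for Psma3) and of 1.02 in dendrites, and was larger in dendrites for 25 of 31 members. Over all tested genes the medians were 1.34 and 1.40, and 55.7% were larger in dendrites. The dendrite libraries were also the shallower ones in 14 neurons, and the part of depth in this difference was not tested.

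From neuron to neuron, the levels of pairs of subunits had correlations close to those of any pair of tested genes. Across the 16 somata, the 465 pairs of members had a median Spearman correlation of 0.053, against 0.044 over all pairs of tested genes. Across the 16 dendrite samples the medians were 0.068 and 0.056. Within classes the medians ran from -0.074 (alpha) to 0.16 (base non-ATPase genes) in soma and from -0.074 (lid) to 0.31 (base non-ATPase genes) in dendrites. The same gene in the soma and the dendrites of 1 neuron had a median correlation of 0.088 over the members, 20 of 31 being above 0, and of 0.082 over all tested genes. These are descriptions over 16 neurons, whose libraries also differ in depth.

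Other genes of the pathway were read from a list of 45 symbols, of which 38 were among the rows and 29 were tested. None passed: 0 of 29 had an adjusted p under 0.05 and 0 an unadjusted p under 0.05 in edgeR's test, while 10 were negative and 19 positive, with a median of 0.09. The inducible immunoproteasome subunits were scarce. Psmb8 had 0 counts in all 32 libraries, Psmb9 reached 10 counts in 2 soma and 2 dendrite libraries, and Psmb10 had medians of 1.19 CPM in soma and 4.47 CPM in dendrites. The activator genes Psme1 and Psme2, whose products open the core's gate, had soma medians of 0.0989 and 2.42 CPM and dendrite medians of 5.12 and 2.74 CPM. Pomp, a maturation factor of the core, had medians of 10.9 and 9.66 CPM. Ubb, a polyubiquitin gene, had medians of 101 CPM in soma and 97.7 CPM in dendrites.

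The 4 of these genes with the smallest p were Uchl5, Psmd9, Rps27a and Rad23b. Uchl5, a deubiquitinase that docks on the regulatory particle, stood at -3.20 ± 1.63 (SE, n = 16, edgeR adjusted p = 0.999), with 0 to 250 CPM in soma (median 26.5), 0 to 36.3 CPM in dendrites (median 2.01) and higher values in dendrites in 3 of 16 neurons. DESeq2's Wald test gave it an adjusted p of 0.0075. Psmd9, an assembly chaperone of the base, stood at 3.48 ± 2.06, with 0 to 34.1 CPM in soma (median 0), 0 to 232 CPM in dendrites (median 5.69), and 6 soma and 9 dendrite libraries with 10 or more counts. DESeq2's Wald test put it at 5.52, with an adjusted p of 0.00208. Rps27a, which encodes ubiquitin fused to a ribosomal protein, was at 0.70 ± 0.46 and higher in dendrites in 12 neurons, with 118 to 1275 CPM in soma (median 272) and 133 to 5553 CPM in dendrites (median 352). Its highest value was in the dendrites of neuron 20, and with no replicate block it stood at 2.95 (edgeR adjusted p = 0.124). Rad23b, a shuttle factor that carries ubiquitinated proteins to the proteasome, was at -0.98 ± 0.65 and higher in dendrites in 5 neurons, with 91.6 to 1827 CPM in soma (median 489) and 7.05 to 1149 CPM in dendrites (median 303).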

How the data were processed

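Single-neuron soma and dendrite RNA was measured by sequencing, and the authors deposited 1 table of raw counts per gene and library, used as given. The submitters' processing notes name build rn6. The aligner, the gene annotation and the counting by strand are not given in the sources used here. The 92 spike-in rows entered neither library sizes nor tests. Library depth sets the precision, and amplified reads are not independent molecules. The members and lists were chosen with earlier results of these data known.

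In R 4.3.3, genes passed filterByExpr (minimum count 10), TMM factors were computed, and edgeR 4.0.16 (glmQLFit, robust, and glmQLFTest) compared dendrites with soma, with Benjamini-Hochberg adjustment over all tested genes at 0.05. The SE was taken as the size of the log2 fold change divided by the root of its F statistic. The neuron was a block because the series text says that both libraries of a number come from 1 cell; centred profiles correlated with a mean Spearman of 0.068 within and -0.00054 between neurons, and 4 of 16 neurons were above 0.1. Paired log2 CPM differences (prior count 2) were tested by exact two-sided sign flips. DESeq2 1.42.0, limma-voom (limma 3.58.1), other scalings and filters, no block, and fits without neurons were alternatives. The tests were tested on simulated data.

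Ranges, fold changes and SEs are given at least for the 2 members of each class with the smallest p and for Psmb5, Psmb6 and Psmb7, and for 4 related genes. Related genes with fixed names are given by their levels. The level of 1 of them is not reported here. RefSeq tables on GRCr8 gave promoters (27 of 31 members matched by symbol; Psma7, Psmd6, Psmd12 and Psmd14 did not) and pseudogene names, 35 rows for 15 members, whose shared reads make these counts uncertain.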

Additional observations from a re-analysis of the deposited data

How the results depend on the processing

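Of the 31 members, 19 kept the sign of their fold change in every one of the 10 alternative fits that tested them and in the 16 fits that each left out 1 neuron, among them Psma3, Psmb2, Psmc4, Psmd2 and Psmd6. Signs turned for the other 12, whose fold changes lay between -0.39 and 0.45, and the cause was not tested. With no replicate block, Psma5 stood at 2.06, Psma6 at 0.41, Psmb1 at -0.052, Psmb3 at -0.040, Psmb5 at 1.42, Psmc5 at -0.050, Psmd7 at 0.30 and Psmd11 at -0.19, and the medians were -0.040 for the beta class and 0.024 for the lid. With limma-voom, Psma5 was at 0.18, Psmb1 at -0.13, Psmb5 at 0.11, Psmc5 at -0.053, Psmd7 at 0.38 and Psmd12 at 0.11, with medians of 0.19 for the lid and 0.12 for all Psmd genes. As mean paired differences, Psmb3 was at -0.10, Psmb4 at -0.11, Psmd11 at -0.28, Psmd14 at -0.23 and the beta median at -0.11. Without neurons 20 and 25, Psma6 was at 0.28, Psmb1 at -0.068, Psmb3 at -0.048 and the beta median at -0.068. Without neurons 7, 8 and 9, Psmb4 was at -0.11, Psmd11 at -0.36 and the beta median at -0.11. Psmc2 was at -0.045 with library totals and Psmd11 at -0.027 with no filter. The lid median was 0.027 with DESeq2 size factors, 0.0083 with library totals and 0.028 with DESeq2, and the ATPase median 0.11 with 10 counts required in 28 of 32 libraries, where 29 members were tested. Leaving out 1 neuron moved Psma6 from -0.55 to 0.11, Psmb1 from -0.0080 to 0.36, Psmb3 from -0.087 to 0.41, Psmb4 from -0.096 to 0.25, Psmc2 from -0.26 to 0.44, Psmd7 from -0.46 to 0.10, Psmd11 from -0.28 to 0.40, Psmd12 from -0.52 to 0.19 and Psmd14 from -0.13 to 0.53, and the medians of the lid from -0.27 to 0.29, of the beta class from -0.096 to 0.11 and of all Psmd genes from -0.28 to 0.19. The alpha median stayed negative throughout, between -0.93 and -0.50 over those 16 fits. So did the medians of the base non-ATPase genes (-1.24 to -0.74), of the core (-0.64 to -0.35) and of all members (-0.49 to -0.17). The ATPase median lay between -0.60 and -0.18 over those 16 fits and was positive only with the stricter filter given above. The count of genes past the threshold was 406 with DESeq2, 1 with no filter and 0 in the other fits. With TMM scaling the mean dendrite sums were 3035 ± 3946 CPM (SD) for the alpha class, 5995 ± 8150 CPM for the core and 11536 ± 10785 CPM for all members. These sums were lower in dendrites in 10, 9 and 10 of 16 neurons. At 7 members, the count lower in dendrites in at least 75% of neurons was highest without neurons 7, 8 and 9. Depth limits the dendrites of neuron 25 most, with 229149 gene counts.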
